A study of Mus musculus with 4 samples.

Results

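The hair cell transcription factors are described here across the cochleae of 4 groups of mice, as the 9 genes *Atoh1*, *Pou4f3*, *Gfi1*, *Lhx3*, *Barhl1*, *Ikzf2*, *Insm1*, *Tbx2* and *Rorb*. Every probe that the array files name for one of these genes was taken, whatever its values, which gave 12 probes of 39429 and 9 genes of 29977. *Barhl1*, *Ikzf2* and *Rorb* have 2 probes each, the other 6 genes have 1, and each of the 12 probes is a single spot on an array. No further probe was matched to a member through its accession or an older name (a count of 0).

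The mice were wild-type B6J mice and OHC-TRECK mice on the same background, called *Prestin*-*hDTR* mice in the study, and both genotypes were either untreated or given diphtheria toxin (DT). The transgene carries a human receptor for DT under the promoter of *Slc26a5*, the gene for prestin, the motor protein of outer hair cells (OHCs), and all transgenic mice came from 1 chosen line. The labels give 5 weeks of age, cochlea as the tissue and 50 μg/kg of DT 7 days before dissection, with 4 females and 4 males per group, named as pooled. Cy3-labelled RNA of each group was hybridised to 1 array, and the 4 arrays shared a slide. Each group therefore has 1 array, no difference has a replicate check on these arrays, and no p-value is given. The paper also measured genes linked to hearing loss in cochlear RNA by quantitative RT-PCR (qRT-PCR). It reported *Gfi1*, *Lhx3*, *Pou4f3* and *Barhl1* among those significantly lower in DT-treated *Prestin*-*hDTR* mice.

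Hair cells turn sound into electrical signals, and their identity is built by a cascade of transcription factors. *Atoh1* starts the differentiation of hair cells in the embryo, *Pou4f3* acts after it, and *Gfi1*, *Lhx3* and *Barhl1* are known as hair cell genes with roles in maturation and survival. Other members bear on the choice between the types of hair cell: *Insm1* and *Ikzf2* favour the outer type, and *Tbx2* the inner type (IHCs). *Rorb* encodes a nuclear receptor known best from the retina and the cerebral cortex. *Gfi1* is also active outside the ear, in the marrow, where it is needed for the formation of neutrophils.

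A level below is the log2 of the background-subtracted signal over the 75th percentile of its array, so that 0 is the 75th percentile, and levels of different probes are not set against each other. The error given after ± is that of the scanner software for the spots compared, carried to the log2 scale. It was at most 21.8% of the signal for member probes well above background on all 4 arrays, and it does not cover the spread between mice. Probes dim on both arrays of a comparison (not well above background) were left out of it, and a difference of 2-fold or more counts as a call. Over the 4 arrays, 62.2% to 70.6% of all probes were well above background, and 149 to 228 spots per array were left out as outliers. Repeated spots of a probe had a median SD of 0.061 to 0.072 on the log2 scale.

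Genes of OHCs were lower in DT-treated *Prestin*-*hDTR* mice, in the direction of the labels. *Ocm*, which encodes the calcium buffer oncomodulin, had levels of 4.36 and 4.21 in wild-type mice without and with DT, and of 4.35 and 1.97 in *Prestin*-*hDTR* mice. *Strc*, the gene for stereocilin of the hair bundle, was 8.57-fold lower in DT-treated than in untreated *Prestin*-*hDTR* mice, whereas *Slc26a5* was near the limit of detection and dim on the DT-treated array, so that its fall is known only as at least 1.31-fold. In whole cochleae, fewer cells of a type and less RNA per cell cannot be told apart.

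Of the 9 transcription factors, *Gfi1*, *Lhx3*, *Pou4f3* and *Barhl1* were at least 2-fold below each of the 3 other arrays in DT-treated *Prestin*-*hDTR* mice. *Barhl1* counts among them through 1 of its 2 probes. *Ikzf2* stayed within 1.32-fold over all 4 arrays for one probe and 1.07-fold for the other, *Tbx2* and *Rorb* were slightly higher after DT, *Atoh1* was barely detected and *Insm1* was dim on all 4 arrays.

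**Figure D1:**
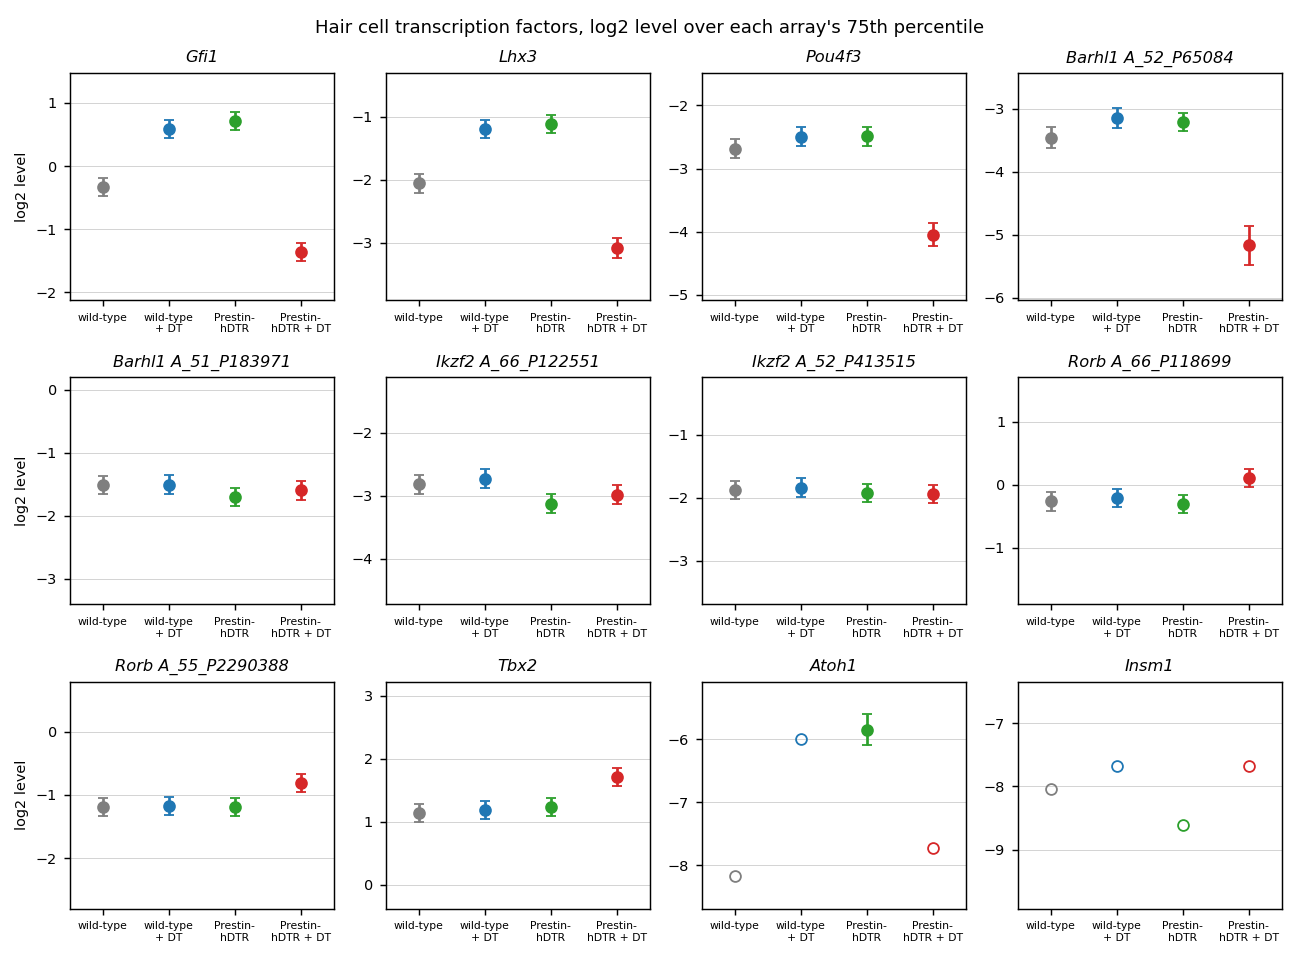
Levels of the 12 member probes on the 4 arrays, as log2 of the signal over the array's 75th percentile; each panel spans 3.6 log2 units. Filled points are well above background and carry the software's error of the spot, and open points are not well above background. *Gfi1*, *Lhx3*, *Pou4f3* and 1 *Barhl1* probe are lowest in DT-treated *Prestin*-*hDTR* mice, and *Gfi1* and *Lhx3* are lower in untreated wild-type mice than on the other 2 control arrays.

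*Gfi1*, a zinc finger repressor, was measured by a probe at chr5:108145719-108145778 (mm9, minus strand). Its level was -0.34 in untreated and 0.59 in DT-treated wild-type mice, and 0.71 without and -1.37 with DT in *Prestin*-*hDTR* mice. The last array was the lowest, and untreated wild-type mice lay between it and the 2 other controls. The fall was 4.23-fold against untreated *Prestin*-*hDTR* mice (log2 ratio -2.08 ± 0.21), 3.89-fold against DT-treated wild-type mice and 2.04-fold against untreated wild-type mice (log2 ratio -1.03 ± 0.21).

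*Lhx3*, a LIM homeodomain factor, was measured at chr2:26055746-26055805 (mm9, minus strand) and followed the same order. Its levels were -2.06 and -1.19 in untreated and DT-treated wild-type mice, and -1.12 and -3.08 in untreated and DT-treated *Prestin*-*hDTR* mice. The fall in DT-treated *Prestin*-*hDTR* mice was 3.90-fold against untreated *Prestin*-*hDTR* mice (log2 ratio -1.96 ± 0.22), 3.69-fold against DT-treated wild-type mice and 2.03-fold against untreated wild-type mice (log2 ratio -1.02 ± 0.22). The smallest of these folds lies just past the 2-fold threshold for both *Gfi1* and *Lhx3*, by less than the error of the spots. With a median scaling of the arrays those 2 ratios were -0.97 for *Gfi1* and -0.96 for *Lhx3*, and with another background correction (normexp) they were -0.99 and -0.84, so that neither gene was then called against untreated wild-type mice. With quantile normalization *Lhx3* alone lost this call, at -0.99.

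*Pou4f3*, a POU-domain factor on which hair cell survival depends, differed little among the controls. Its levels were -2.68 and -2.49 in wild-type mice without and with DT and -2.49 in untreated *Prestin*-*hDTR* mice, which fell to -4.05 with DT. The controls spanned 1.14-fold, and the DT-treated *Prestin*-*hDTR* array lay 2.57-fold below the lowest of them. The fall was 2.94-fold against untreated *Prestin*-*hDTR* mice (log2 ratio -1.56 ± 0.24), and equally 2.94-fold against wild-type mice given DT (-1.55 ± 0.24). Under the normexp correction the 3 log2 ratios lay between -1.23 and -1.02.

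The 2 probes for *Barhl1*, a homeodomain factor, disagreed. The probe A_52_P65084 had levels of -3.46 and -3.15 in untreated and DT-treated wild-type mice, -3.21 in untreated *Prestin*-*hDTR* mice and -5.17 in DT-treated *Prestin*-*hDTR* mice. Within this genotype the fall was 3.89-fold (log2 ratio -1.96 ± 0.35), and against the wild-type arrays it was 4.05-fold (with DT) and 3.27-fold (without). Under the normexp correction these falls shrank to log2 ratios of -1.24, -1.34 and -1.01, still past the threshold.

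The probe A_51_P183971 read -1.50 in untreated and DT-treated wild-type mice, -1.70 in untreated and -1.59 in DT-treated *Prestin*-*hDTR* mice. These levels span 1.15-fold, and the DT-treated *Prestin*-*hDTR* array lies inside the range of the controls, with log2 ratios of -0.09 ± 0.21 against both wild-type arrays and 0.11 ± 0.21 against untreated *Prestin*-*hDTR* mice. The array files list both probes under the same RefSeq transcript, but the genome and transcript positions they give differ. The listed starts lie 53 bases apart in the genome (chr2:28763253-28763312 for A_52_P65084 and chr2:28763200-28763239 for A_51_P183971, mm9, minus strand) and 1481 bases apart in the transcript. The listed span of A_51_P183971 is 40 bases although the probe is 60 bases long, as 635 of 39036 probes with a position have a span shorter than the probe. The probes share no run of bases longer than 5. The paper reported *Barhl1* among the hearing loss genes that were lower by qRT-PCR in DT-treated *Prestin*-*hDTR* mice. Which of the array probes follows the *Barhl1* transcript was not tested here.

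Both probes of the other 2 genes with a pair agreed in whether a 2-fold change was reached. The *Ikzf2* probes lie 6155 bases apart and the *Rorb* probes 5266 bases apart, in the transcript and in the genome alike.

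**Figure D2:**
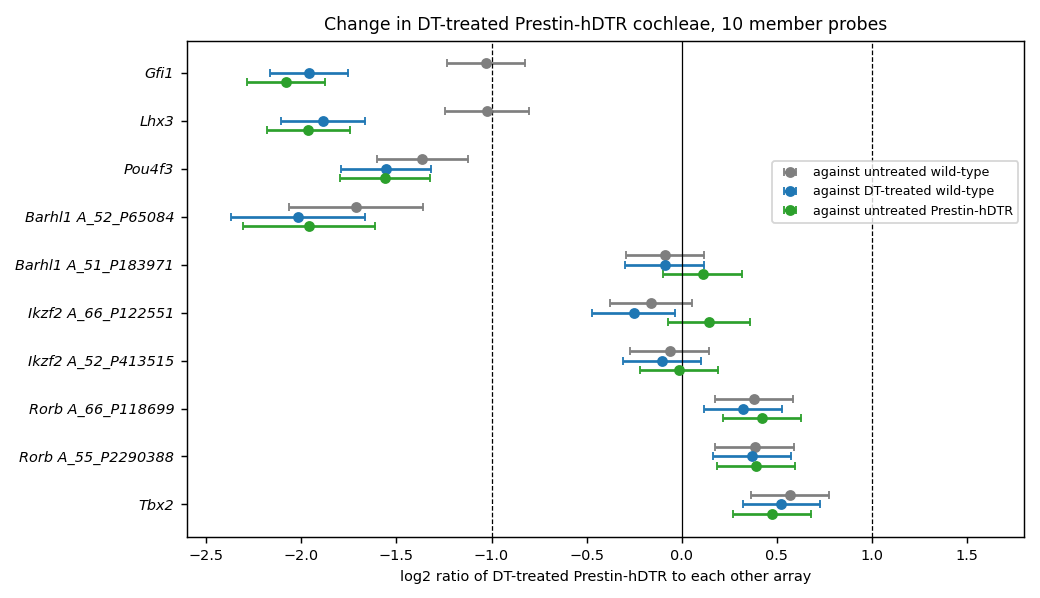
Log2 ratio of DT-treated *Prestin*-*hDTR* mice to each of the 3 other arrays for the 10 member probes well above background on all 4 arrays, with the software's error of the 2 spots as bars. Dashed lines mark 2-fold. The probes of *Gfi1*, *Lhx3* and *Pou4f3* and the *Barhl1* probe A_52_P65084 lie at or beyond the lower line in each comparison, and those of *Rorb* and *Tbx2* lie between 0.32 and 0.57.

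In the comparison with untreated *Prestin*-*hDTR* mice, 4 of the 11 member probes that entered were lower by 2-fold or more, against 1.35% of all probes, and none was higher (0 of 11, against 2.49% of all probes). Against DT-treated wild-type mice 4 of 10 were lower and 0 higher, where 1.83% and 1.41% of all probes were. Against untreated wild-type mice the counts were again 4 and 0 of 10, beside 1.95% and 1.96% of all probes. The 3 comparisons share the DT-treated *Prestin*-*hDTR* array. Lower by 2-fold or more in each of them were 4 of 10 member probes and 0.259% of all probes, or 65 of 25061. The paper had already named the genes of these 4 probes as lowered by 2-fold on the same arrays. The members were chosen with such results known, so the shares are no test of enrichment. Without regard to size, 5 of the 10 member probes well above background on all arrays were lowest in DT-treated *Prestin*-*hDTR* mice (the background is 35.2%), the fifth being an *Ikzf2* probe, and 3 were highest there (the background is 32.9%). The last 2 shares are not far from their backgrounds.

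The 250 bases before the outermost RefSeq start sites are shown for *Gfi1*, *Lhx3* and *Barhl1*, of which *Barhl1* had probes that disagreed. The promoter table given here holds 5 of 9 members, in the GRCm38.p6 build, and *Pou4f3*, which was also lower, is not among them. Shared regulation of these genes was not tested. Capitals mark the E-box CANNTG, the motif bound by basic helix-loop-helix factors such as *Atoh1*. The windows are chr5:107725806-107726055 for *Gfi1*, chr2:26208250-26208499 for *Lhx3* and chr2:28916669-28916918 for *Barhl1*, all on the minus strand, and each is written 5′ to 3′ on the strand of its gene.
Gfi1: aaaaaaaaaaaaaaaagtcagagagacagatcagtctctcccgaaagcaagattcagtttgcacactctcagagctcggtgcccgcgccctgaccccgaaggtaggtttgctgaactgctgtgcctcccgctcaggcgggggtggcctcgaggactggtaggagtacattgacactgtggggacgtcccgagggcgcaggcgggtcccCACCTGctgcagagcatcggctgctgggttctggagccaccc
Lhx3: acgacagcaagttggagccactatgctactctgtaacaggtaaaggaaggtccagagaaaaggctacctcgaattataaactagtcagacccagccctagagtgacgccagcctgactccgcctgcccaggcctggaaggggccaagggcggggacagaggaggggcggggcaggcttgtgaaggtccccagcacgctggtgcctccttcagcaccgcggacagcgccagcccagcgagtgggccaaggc
Barhl1: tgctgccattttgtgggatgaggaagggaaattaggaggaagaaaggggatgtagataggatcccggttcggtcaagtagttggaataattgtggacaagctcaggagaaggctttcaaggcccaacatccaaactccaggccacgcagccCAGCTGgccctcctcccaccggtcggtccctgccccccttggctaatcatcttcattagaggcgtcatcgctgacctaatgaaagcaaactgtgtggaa

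The *Gfi1* window holds 1 E-box, CACCTG, which begins 42 bases before the start site, and the *Barhl1* window holds 1, CAGCTG, at 99 bases. The windows of *Lhx3*, *Atoh1* and *Rorb* hold none. Of 32851 windows of this length in the table, 66.2% hold at least 1 E-box, so that its presence is common. The letters TAAT, the core of many homeodomain motifs, were searched on both strands and occur in 54.9% of the windows. They are found 5 times in that of *Barhl1*, 1 time each in those of *Lhx3* and *Rorb*, and 0 times in those of *Gfi1* and *Atoh1*. A match is a description of these letters and not a binding site.

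*Ikzf2* and *Tbx2*, linked above to the outer and the inner type, were not lower by 2-fold or more in any comparison, and *Insm1* could not be compared. The arrays measured whole cochleae, so the cells that gave these signals are not known. *Ikzf2*, which encodes the zinc finger factor helios of OHCs, had levels of -1.88 and -1.84 in wild-type and -1.93 and -1.94 in *Prestin*-*hDTR* mice without and with DT by the probe at chr1:69577853-69577912. By its other probe, at chr1:69584008-69584067 (both mm9, minus strand), the levels were -2.82, -2.73, -3.13 and -2.98 in the same order. With DT in *Prestin*-*hDTR* mice these probes moved by -0.01 ± 0.21 and 0.14 ± 0.22 on the log2 scale, and the lowest in any comparison of the DT-treated *Prestin*-*hDTR* array was -0.25 ± 0.22.

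*Tbx2*, a T-box factor of IHCs, was measured at chr11:85655391-85655450 (mm9, plus strand). Its levels were 1.14 and 1.18 in untreated and DT-treated wild-type mice, 1.23 in untreated *Prestin*-*hDTR* mice and 1.70 in DT-treated *Prestin*-*hDTR* mice. The 3 controls lay within 1.07-fold of each other, and DT-treated *Prestin*-*hDTR* mice were 1.39-fold above the highest of them (log2 ratio 0.47 ± 0.20), 1.44-fold above DT-treated wild-type mice and 1.48-fold above untreated wild-type mice. Larger rises were seen for 5.95%, 3.05% and 3.63% of the probes measured on both arrays in these comparisons.

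*Rorb* gave a similar picture with both probes. By that at chr19:19006883-19006942 (mm9, minus strand) its levels were -0.26, -0.21 and -0.31 in the controls and 0.11 in DT-treated *Prestin*-*hDTR* mice, which was 1.34-fold above untreated *Prestin*-*hDTR* mice (log2 ratio 0.42 ± 0.20). By that at chr19:19012149-19012208 the controls lay between -1.20 and -1.18 and DT-treated *Prestin*-*hDTR* mice at -0.81, a rise of 1.31-fold (log2 ratio 0.39 ± 0.21). None of these rises of *Tbx2* or *Rorb* reached the 2-fold threshold.

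*Atoh1*, the first factor of the cascade, was well above background only in untreated *Prestin*-*hDTR* mice, at -5.85. Its values were -8.17 and -6.00 in untreated and DT-treated wild-type mice and -7.73 in DT-treated *Prestin*-*hDTR* mice, and these were not well above background. Between the untreated arrays it was at least 1.05-fold higher in *Prestin*-*hDTR* mice, and no fold can be given against the DT-treated *Prestin*-*hDTR* array, whose lowest detected signal lay higher than the level of *Atoh1*. *Insm1* was not well above background on any of the 4 arrays and entered no comparison.

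*Gfi1* and *Lhx3* also differed among the controls, and in the same way. In untreated *Prestin*-*hDTR* mice *Gfi1* was 2.07-fold higher than in untreated wild-type mice (log2 ratio 1.05 ± 0.20) and *Lhx3* was 1.92-fold higher (0.94 ± 0.21). In DT-treated wild-type mice *Gfi1* was 1.91-fold and *Lhx3* 1.82-fold higher than in untreated wild-type mice (log2 ratios 0.93 ± 0.20 and 0.86 ± 0.21). Between these 2 higher controls the levels of either gene differed by less than the error of the spots. Both comparisons share the untreated wild-type array.

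Between the untreated arrays *Gfi1* was thus the 1 member probe of 11 that was at least 2-fold higher in *Prestin*-*hDTR* mice, beside 1.01% of all probes, and 0 member probes were lower (2.32% of all probes). Between DT-treated and untreated wild-type mice 0 of 10 member probes were called in either direction, beside 1.46% of all probes higher and 1.09% lower. *Gfi1* and *Lhx3* lie just under the threshold there, and with a threshold of 1.5-fold both are called in both comparisons. The other members moved less: the controls spanned 1.24-fold for the *Barhl1* probe A_52_P65084 and 1.07-fold for *Tbx2*. Untreated wild-type mice were the lowest of the 3 controls for 5 of 10 member probes, those of *Gfi1*, *Lhx3*, *Pou4f3*, *Tbx2* and the lowered *Barhl1* probe, against 30.5% of all probes.

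Markers of other cells also differed among the controls, and their values are given beside this result. All 14 listed genes of neutrophils and their progenitors, such as *Mpo* and *S100a8*, were well above background on at least 1 array. Their summed level, in multiples of the 75th percentile, was 39.3 in untreated and 61.5 in DT-treated wild-type mice, 14.1 in untreated *Prestin*-*hDTR* mice and 24.1 in DT-treated *Prestin*-*hDTR* mice. Between the untreated arrays 12 of the 14 were lower in *Prestin*-*hDTR* mice by 2-fold or more (all genes, 527 of 21110). Their median log2 ratio was -1.38 there (all genes, -0.01), where *Gfi1* was higher. In DT-treated against untreated wild-type mice their median log2 ratio was 0.63 (all genes, -0.04), in the direction of *Gfi1*. In the 3 comparisons of the DT-treated *Prestin*-*hDTR* array, in each of which *Gfi1* was lower, the list went both ways. Its median was 0.69 against the untreated array of this genotype. There 0 of 13 were lower by 2-fold or more and 4 higher (all genes, 303 and 581 of 19987). It was -1.43 against wild-type mice with DT (14 of 14 lower, 12 of them by 2-fold or more). Against those without DT it was -0.75, with 12 of 14 lower. Of these, 3 were lower by 2-fold or more, namely *Cebpe*, *Ngp* and *Camp*. Of all genes, 379 of 19495 and 421 of 20210 were lower by 2-fold or more in these comparisons.

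Of the genes of red cell precursors, all 10 were above background on at least 1 array. In DT-treated against untreated wild-type mice 8 of the 10 were higher by 2-fold or more (all genes, 317 of 20163). Their median log2 ratio was 1.99 there (all genes, -0.04) and -0.24 between the untreated arrays (all genes, -0.01). In DT-treated *Prestin*-*hDTR* mice 9 of the 10 were lower than in wild-type mice with DT, 8 of them by 2-fold or more (all genes, 379 of 19495). The median was -1.28 there, and the medians against the 2 untreated arrays were 0.99 (*Prestin*-*hDTR*) and 0.56 (wild-type). *Gfi1b*, the close relative of *Gfi1* that acts in red cell and platelet precursors, had levels of -4.11 and -2.78 in wild-type mice without and with DT and -5.06 in untreated *Prestin*-*hDTR* mice. On the array of those given DT it was not well above background, at -5.28, above that array's lowest detected signal of -5.44. Its 5.64-fold lower value than in wild-type mice with DT is therefore a plain ratio to a dim signal and not a lower bound. Its order across the controls was thus not that of *Gfi1*. Of the lymphoid markers, 10 of 12 were detected. In wild-type mice 3 of 10 were higher by 2-fold or more with DT, *Vpreb3* among them, and the median log2 ratio was 0.67. Only 1 of 10 was lower there by any size. Between the untreated arrays the median was -0.26, with *Pax5* alone called, at 2.89-fold higher in *Prestin*-*hDTR* mice. In DT-treated *Prestin*-*hDTR* mice 8 of 10 were lower than in wild-type mice with DT, and 5 of 10 by 2-fold or more, *Vpreb1* and *Vpreb3* among these 5. The median was -0.80 there, and the medians against the untreated arrays were 0.11 (*Prestin*-*hDTR*) and -0.05 (wild-type).

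**Figure D3:**
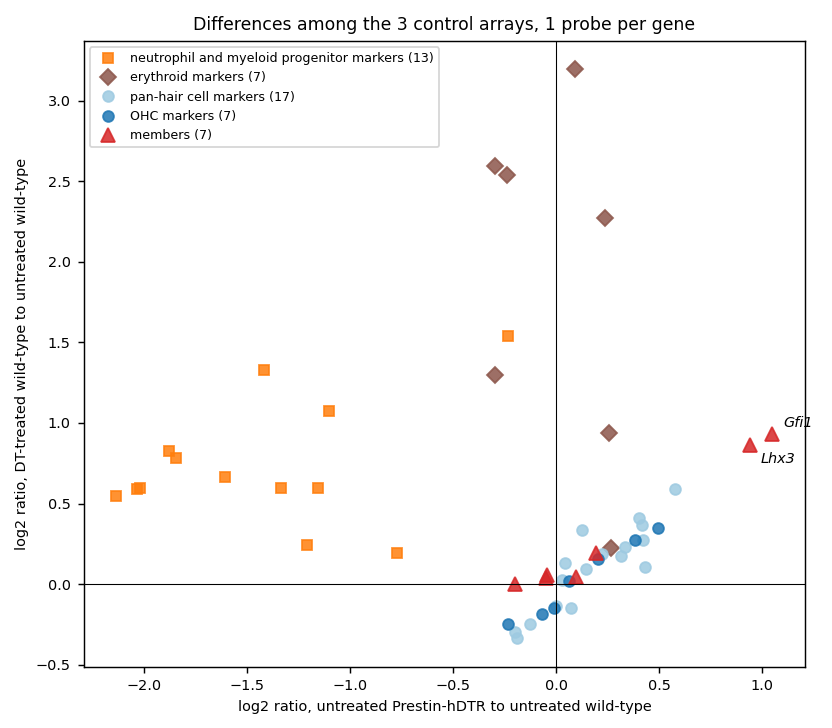
Log2 ratios of untreated *Prestin*-*hDTR* mice (horizontal axis) and of DT-treated wild-type mice (vertical axis) to untreated wild-type mice, which both axes share, for listed genes well above background on all 4 arrays, 1 probe per gene. *Gfi1* and *Lhx3* lie near 1 on both axes, while the neutrophil markers lie left of 0 and above 0.

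Listed markers of hair cells stayed within 2-fold of untreated wild-type mice on the other 2 control arrays. The 17 detected markers of hair cells of both types had median log2 ratios to untreated wild-type mice of 0.15 (untreated *Prestin*-*hDTR*) and 0.13 (wild-type with DT), with 0 of 17 past 2-fold in either comparison. Of these 17, only 4 and 5 were lower than in untreated wild-type mice, beside 11313 of 21110 and 12147 of 20163 of all genes. *Myo15*, the gene for a motor of the hair bundle, was highest in both, at 0.58 and 0.59. Of the 8 OHC markers 0 passed 2-fold, 4 and 3 were lower, and their medians were 0.03 and 0.09. Among 4 genes of the vestibular organs *Oc90* and *Otop1* had log2 ratios between -0.46 and -0.12 in the same comparisons and *Nox3* was dim on all 4 arrays. *Otol1*, which encodes a collagen-like protein of otoconia, was not well above background in untreated wild-type mice and was at least 7.33-fold higher in *Prestin*-*hDTR* mice without DT and at least 6.49-fold higher in wild-type mice with DT. Of 12 supporting cell markers, *Otog*, the gene for otogelin of the acellular membranes, alone was called among the controls. Its levels were -1.27 in untreated and -0.23 in DT-treated wild-type mice and -0.37 in untreated *Prestin*-*hDTR* mice, or 2.06-fold and 1.86-fold above the first. The part of any of these in the control differences of *Gfi1* and *Lhx3* was not tested.

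Beside the members stand their paralogues, of which 16 of 20 were detected, and 0 of 16 were lower by 2-fold or more in all 3 comparisons of the DT-treated *Prestin*-*hDTR* array (all genes, 56 of 19142). Their median log2 ratio against untreated *Prestin*-*hDTR* mice was 0.07. *Pou4f1* and *Pou4f2*, relatives of *Pou4f3* known from sensory neurons and retinal ganglion cells, had levels of -0.65 and 0.33 in untreated and -0.81 and -0.0008 in DT-treated *Prestin*-*hDTR* mice. *Tbx3*, the nearest relative of *Tbx2*, rose from 1.16 to 1.45 without reaching 2-fold. *Ikzf1*, a factor of blood cells, was higher by 2.08-fold and *Insm2* by 2.27-fold against untreated *Prestin*-*hDTR* mice, and neither was called against DT-treated or untreated wild-type mice.

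Of 25 genes that act before or around the cascade in the inner ear, such as *Sox2*, *Gata3* and the Notch genes, 22 could be compared in all 3 comparisons, and 0 were lower or higher by 2-fold or more in each. Their median log2 ratio was -0.01 against untreated *Prestin*-*hDTR* mice, as was that of all genes. *Sox2*, which marks supporting cells in the adult, stood at -1.53 and -1.68 in untreated and DT-treated *Prestin*-*hDTR* mice. The lowest in that comparison was *Notch1*, a receptor of lateral inhibition, at 1.72-fold lower, and untreated *Prestin*-*hDTR* mice were 1.51-fold above untreated wild-type mice for it.

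With 1 probe per gene, chosen for the highest mean signal, 3 of the 7 member genes compared in all 3 comparisons were at least 2-fold lower in each. The unchanged probe then stands for *Barhl1*. The same count was 5 of 8 for OHC markers (*Ocm*, *Strc*, *Chrna9*, *Chrna10* and *Ppp1r17*) and 5 of 17 for markers of both types of hair cell (*Myo15*, *Tmc1*, *Grxcr2*, *Pjvk* and *Tomt*). It was 0 of 4 for IHC markers, although all 4 were lower by less than 2-fold in each comparison. Their median log2 ratio was -0.54 against untreated *Prestin*-*hDTR* mice. For supporting cells the count was 0 of 12, with a median log2 ratio of 0.05 against the same array. Macrophage markers went the other way, with 6 of 11 higher by 2-fold or more in each comparison (all genes, 234 of 19142) and a summed level of 35.7 against 16.2 to 18.7 in the controls. These lists were chosen with earlier results of these data known. The paper had already named the OHC and hair cell genes given above as lowered on the same arrays. The counts are therefore a description and not an independent yardstick.

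**Figure D4:**
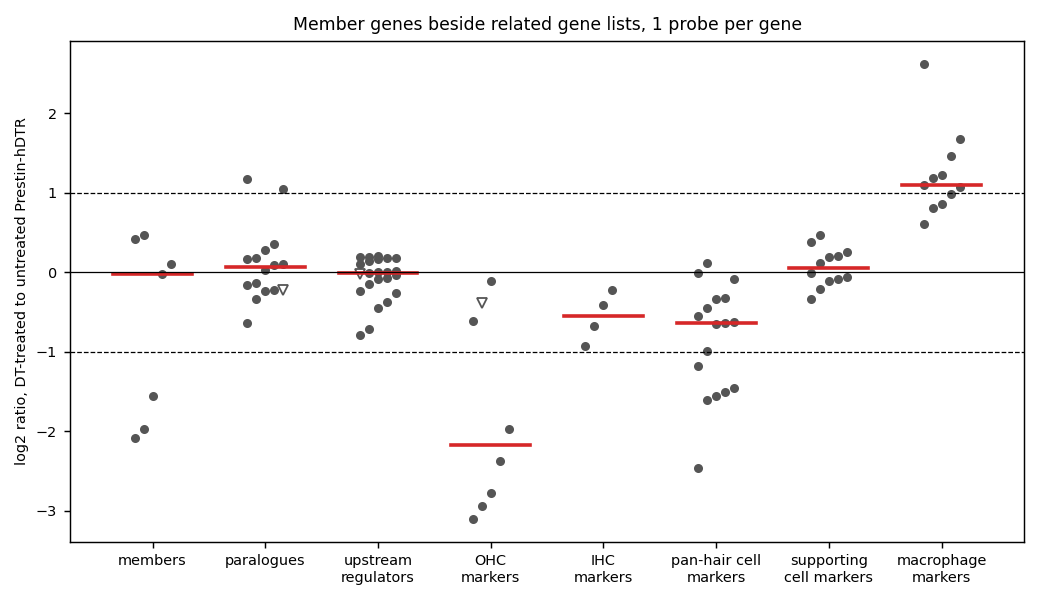
Log2 ratio of DT-treated to untreated *Prestin*-*hDTR* mice for the members and 7 related gene lists, 1 probe per gene, with the list's median as a red line and 2-fold as dashed lines. Open triangles are genes not well above background on the DT-treated array. They are bounds where the signal was raised to the lowest detected one of that array. Of the 7 members, 3 lie among the values of the OHC and hair cell markers and 4 near 0 or above it, and the *Barhl1* probe shown is the unchanged one.

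The likeness of profiles over the 4 arrays was measured as the root mean square difference between mean-centred log2 levels, over all probes well above background on all arrays. It is a description of 4 points that share libraries. The nearest gene to *Gfi1* was *Lhx3* and the nearest to *Lhx3* was *Gfi1*, with a difference of 0.049 log2 units. Next for both came *Maats1*, which encodes a protein of the ciliary axoneme, at 0.15 from *Gfi1* and 0.17 from *Lhx3*. Its levels were -4.79, -3.62, -3.41 and -5.42, in the order of wild-type and *Prestin*-*hDTR* mice without and with DT. The last of these lies close to the lowest detected signal of that array, -5.44. The third were *Fam183b* for *Gfi1*, at 0.22, and *Ppp1r32* for *Lhx3*, at 0.20.

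*Pou4f3* had another set of neighbours. These were *Grxcr2*, a gene of the stereocilia, at 0.057, *Vwa3a* at 0.062 and *Tmc1*, a subunit of the mechanotransduction channel, at 0.075. The lowered *Barhl1* probe was nearest to *Gm9732*, at 0.047, and *Vwa3a*, at 0.14. The unchanged *Barhl1* probe differed from the lowered one by 0.83 and from the *Ikzf2* probes by 0.057 and 0.076. Between the lowered members, *Pou4f3* and the *Barhl1* probe differed by 0.18, and *Gfi1* differed from them by 0.34 and 0.31. The *Rorb* probes differed from each other by 0.028 and from *Tbx2* by 0.086 and 0.071. The nearest genes to *Tbx2* and *Rorb* were *Tmem171*, *LOC547349* and *Pof1b*, each within 0.009, where small changes on all arrays make many profiles alike.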

How the data were processed

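Cochlear RNA of 4 groups of mice was measured on 1 single-colour Agilent mouse array per group. The authors deposited the scanner output of Feature Extraction 11.5.1.1, in which the intensity of a spot is linear, background-subtracted and detrended within the array, with no scaling between arrays and with probe positions in mm9. They also deposited a table of scaled signal, in which 1 constant for each array (2924 to 3365) divides this intensity and was used as an alternative. The labels call the sexes pooled and give 8 per group, the methods do not say at which step material was pooled, and with 1 array each the precision is limited.

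Of 44397 spots, 1377 controls and the outliers were left out, and no spot was saturated (0 on each array). Spots of a probe were averaged, a flag was kept for a probe if over 0.5 of its spots carried it, and log2 was taken after scaling each array to the 75th percentile over its probes. A dim side of a ratio that lay below the lowest detected signal of its array was raised to that signal. The fold is then written as at least N-fold. For lists, the probe with the highest mean was taken per gene. The members, the 13 gene lists beside them and the comparisons were chosen with earlier results of these data known. The genes named are all members, *Slc26a5*, *Ocm* and *Strc*, list genes where at most 5 were called or as examples, and the 3 nearest profiles per member. Names came from the RefSeq table by symbol for 29803 probes, accession for 1635 and synonym for 295, and from the array files for 7696. Alternatives changed the background correction, scaling, filter, floor, threshold, source of values and choice of probe. The code that makes the calls was tested on simulated data, which bears on the code and not on these arrays. Python 3.11.15, numpy 2.4.6, pandas 2.3.3, matplotlib 3.10.9, R 4.3.3 and limma 3.58.1 were used, the last for normexp with an offset of 50. Lists of neuron and melanocyte markers were also computed, with medians of -0.21 and 0.19 in DT-treated against untreated *Prestin*-*hDTR* mice.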

Additional observations from a re-analysis of the deposited data

Results flagged for a closer look

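For 5 member probes the change with DT went one way in *Prestin*-*hDTR* mice and the other way in wild-type mice, with 1 array on each side, and the difference between the genotypes was not tested. The difference of the 2 changes, on the log2 scale, was -3.01 for *Gfi1* (0.93 in wild-type and -2.08 in *Prestin*-*hDTR* mice), -2.83 for *Lhx3* (0.86 and -1.96), -2.26 for the *Barhl1* probe A_52_P65084 (0.31 and -1.96), -1.75 for *Pou4f3* (0.19 and -1.56) and -0.055 for the *Ikzf2* probe A_52_P413515 (0.041 and -0.014). Only for *Gfi1* and *Lhx3* was the change in wild-type mice larger than 3 times the software's error of the ratio. The value for *Ikzf2* is smaller than that error, 0.21 for either change.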

How the results depend on the processing

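Under 10 alternatives the count of 4 member probes (4 genes) lower by 2-fold or more in all 3 comparisons changed most with the normexp correction and with scaling to the median, to 2 in either case (*Barhl1* and *Pou4f3*), as did the count against untreated wild-type mice, from 4 to 2. With quantile normalization it was 3, and over the 2 comparisons left without the untreated wild-type array, an alternative chosen after seeing the data, it was 4, with 121 of all probes in place of 65 over 3 comparisons. *Gfi1* was joined by *Lhx3* as higher in *Prestin*-*hDTR* mice between the untreated arrays (2 in place of 1) with scaling to the median and at 1.5-fold, and by *Atoh1* without a floor (2). At 1.5-fold 2 member probes, in place of 0, were higher in DT-treated than in untreated wild-type mice. No member ratio past 2-fold changed direction under any alternative (0 of 13). With the median over the probes of a gene in place of the brightest probe, 3 member genes were still lower in all 3 comparisons.

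Counts over all probes depend more on the processing. The ranges that follow include the threshold of 1.5-fold, which gave most of the upper ends. Lower by the threshold of the setting in all 3 comparisons were 35 to 285 probes. Against untreated *Prestin*-*hDTR*, DT-treated wild-type and untreated wild-type mice, 157 to 1253, 241 to 1118 and 224 to 1565 probes were lower and 291 to 1729, 149 to 1002 and 214 to 1215 higher. Between the untreated arrays 129 to 1250 were lower and 55 to 658 higher, and between the wild-type arrays 58 to 764 and 146 to 788. Against untreated wild-type mice 49.9% of the called probes were lower, 39.3% with quantile normalization and 64.4% without a floor. Without a floor the share also turned from 35.1% to 64.2% against untreated *Prestin*-*hDTR* mice and from 42.7% to 61.1% between the wild-type arrays, the last being 57.4% with normexp, and normexp turned it from 56.4% to 42.4% against DT-treated wild-type mice. The cause of these changes was not tested. No paired analysis was possible because each group has 1 array.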
